A study of Mus musculus with 48 samples.

Results

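Expression of 10 genes of bile acid synthesis and transport was followed in the liver of mice that differ in hepatocyte p110α, diet and nutritional state. The genes are Cyp7a1, Cyp8b1, Cyp27a1, Cyp7b1 and Baat of synthesis, Slc10a1 and Slco1b2 of uptake, Abcb11 and Abcb4 of export, and Nr0b2, a repressor of the pathway. They were taken by symbol, as every probe other than a control whose gene name in the scanner output is one of these. The array names 37074 genes, of which 20486 had a probe above background and were tested, and all 10 genes were among these. Of their 17 probes, 16 passed and were well above background in all 6 arrays of every group. The probe that did not pass is a second probe of Cyp7a1.

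All mice were males. The p110αhep-/- mice carry albumin-Cre (Cre+/-) and 2 floxed alleles of p110α, the catalytic subunit of PI3K encoded by Pik3ca, so that the gene is cut where the albumin promoter is active, in hepatocytes. The p110αhep+/+ controls were littermates with floxed p110α and no Cre. From 12 weeks of age, mice of both genotypes received a control diet (CTRL, D12450J) or a high-fat diet (HFD, D12492) with 60% of calories from fat for 12 weeks, and were killed at ZT16, either fed ad libitum or fasted for 24 h. There were 8 groups of 6 mice, with 1 array per mouse. A level is given as the normalized log2 signal of the brightest probe of a gene, and a difference as a log2 fold change (the standard error follows ±). Genes are named as called where limma gave an adjusted p no higher than 0.05 together with a fold change above 1.5.

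Bile acids are made from cholesterol in hepatocytes. CYP7A1 starts the classical pathway and sets its rate, and CYP8B1 adds the hydroxyl group that makes cholic acid. CYP27A1 and CYP7B1 act in the alternative pathway, and BAAT joins bile acids to taurine or glycine. Bile acids return from the gut to hepatocytes through NTCP, encoded by Slc10a1, and OATP1B2, encoded by Slco1b2. They leave into bile through BSEP, encoded by Abcb11, while MDR2, encoded by Abcb4, supplies the phospholipid that keeps bile from harming the ducts. The receptor FXR senses bile acids in the liver and induces Nr0b2, whose product SHP represses Cyp7a1 and Cyp8b1.

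Between 50.1% and 57.4% of the probes of an array were well above background (median 53.8%), and no spot was saturated. The signal of the Pik3ca probe was not lower in p110αhep-/- mice. In fed mice it was higher by 0.39 ± 0.08 on CTRL diet (adjusted p = 0.000403 in limma) and by 0.58 ± 0.08 on HFD (adjusted p = 2.73e-07). Whether this probe lies in the exons that Cre removes is not given in the sources used here, so it does not check the labels, and genotypes are given as labelled. All 6 hepatocyte markers were measured, and their summed linear signal lay between 1320000 and 1540000 over the arrays. The summed signal was 7990 to 36300 for 5 macrophage markers, 1960 to 4730 for 4 of stellate cells, 9450 to 17500 for 4 of endothelial cells and 437 to 840 for the T cell marker Cd3e. Fasting in p110αhep-/- mice on CTRL diet went with calls of 2 of 5 cholangiocyte and 1 of 4 stellate cell markers lower, and of 1 of 4 endothelial and 1 of 6 hepatocyte markers higher, and in the other 3 fasting comparisons 0 or 1 of 5, 0 to 2 of 4, 0 or 1 of 4 and 0 or 1 of 6 were called in these directions. Their part in the fasting differences was not tested. Arrays were washed in 2 batches, each with 3 arrays of every group.

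The 10 genes had calls in all 4 comparisons of fasted with fed mice. In p110αhep+/+ mice, 1 of the 10 was called on CTRL diet (Nr0b2), where 5.46% of all genes tested were called, and 2 on HFD (Cyp8b1 and Cyp7b1, against 4.72% of all genes). In p110αhep-/- mice, 4 were called on CTRL diet (Cyp7a1, Cyp8b1, Abcb11 and Abcb4, against 7.08%) and 1 on HFD (Cyp27a1, against 5.9%). The 4 calls in p110αhep-/- mice on CTRL diet were 2 genes higher and 2 lower in fasted mice. The median absolute fasting difference of the 10 genes was 0.42 and 0.31 in p110αhep+/+ mice on CTRL diet and HFD, and 0.32 and 0.25 in p110αhep-/- mice, beside 0.12 to 0.14 for all genes tested.

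HFD was followed by 6 calls in 40 tests (10 genes in 4 comparisons), where 2.69% of all genes were called, and the genotype by 2 in 40, which is near the 4.94% of all genes. For HFD against CTRL diet, 2 genes were called in fed p110αhep+/+ mice (Cyp7b1 and Abcb4, against 3.71% of all genes), 1 in fasted p110αhep+/+ mice (Cyp7b1, against 2.82%), 1 in fed p110αhep-/- mice (Abcb4, against 2.34%) and 2 in fasted p110αhep-/- mice (Cyp7a1 and Abcb11, against 1.89%). On HFD, 1 of 5 cholangiocyte and 1 of 4 stellate cell markers were called higher in fed and in fasted p110αhep+/+ mice, and none of these in p110αhep-/- mice. The median summed cholangiocyte signal of p110αhep+/+ mice was 2510 on CTRL diet and 3710 on HFD when fed, and 1690 and 2990 when fasted, with overlapping arrays, and the part of these markers in the diet differences was not tested. For p110αhep-/- against p110αhep+/+ mice, none of the 10 was called in fed mice on CTRL diet (3.73% of all genes) or in fasted mice on HFD (6.56%). Of the 10, 1 and 2 had an adjusted p of at most 0.05 in limma with a smaller fold change. Such an adjusted p, at any fold change, was found for 21.7% and 36.9% of all genes. In each comparison 3 of the 10 had an unadjusted p under 0.05, for which the share of all genes was not counted. Abcb11 was called in fasted mice on CTRL diet (1 of 10, against 3.23%) and Cyp7b1 in fed mice on HFD (1 of 10, against 6.23%). For cholangiocytes, the cells of bile ducts, the summed linear signal of the 5 of 6 markers measured was 559 to 1130 over the p110αhep-/- arrays and 1450 to 5400 over the p110αhep+/+ arrays, without overlap, and Cftr was not above background. This sum was led by Spp1, with a mean level of 10.04 beside 5.50 to 7.36 for Sox9, Krt19, Krt7 and Epcam. Of the 5 markers, 1 was called lower in p110αhep-/- mice in fed mice on CTRL diet and 2 in each of the other 3 comparisons of genotypes. Of 4 stellate cell markers, 1 was called lower in each of the 4 comparisons. Of 4 endothelial markers, 1 was called lower in fed mice on either diet and 1 higher in fasted mice on HFD, and 1 of 6 hepatocyte markers was called higher in fed p110αhep-/- mice on CTRL diet. The hepatocyte sums did not overlap between genotypes in fed mice on CTRL diet, at 1360000 to 1410000 in p110αhep+/+ and 1420000 to 1480000 in p110αhep-/- mice. The part of these markers in the differences between genotypes was not tested, and fewer cells of a type and less RNA per cell cannot be told apart in whole liver. Comparisons that share a group of arrays are not independent of each other.

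**Figure D1:**
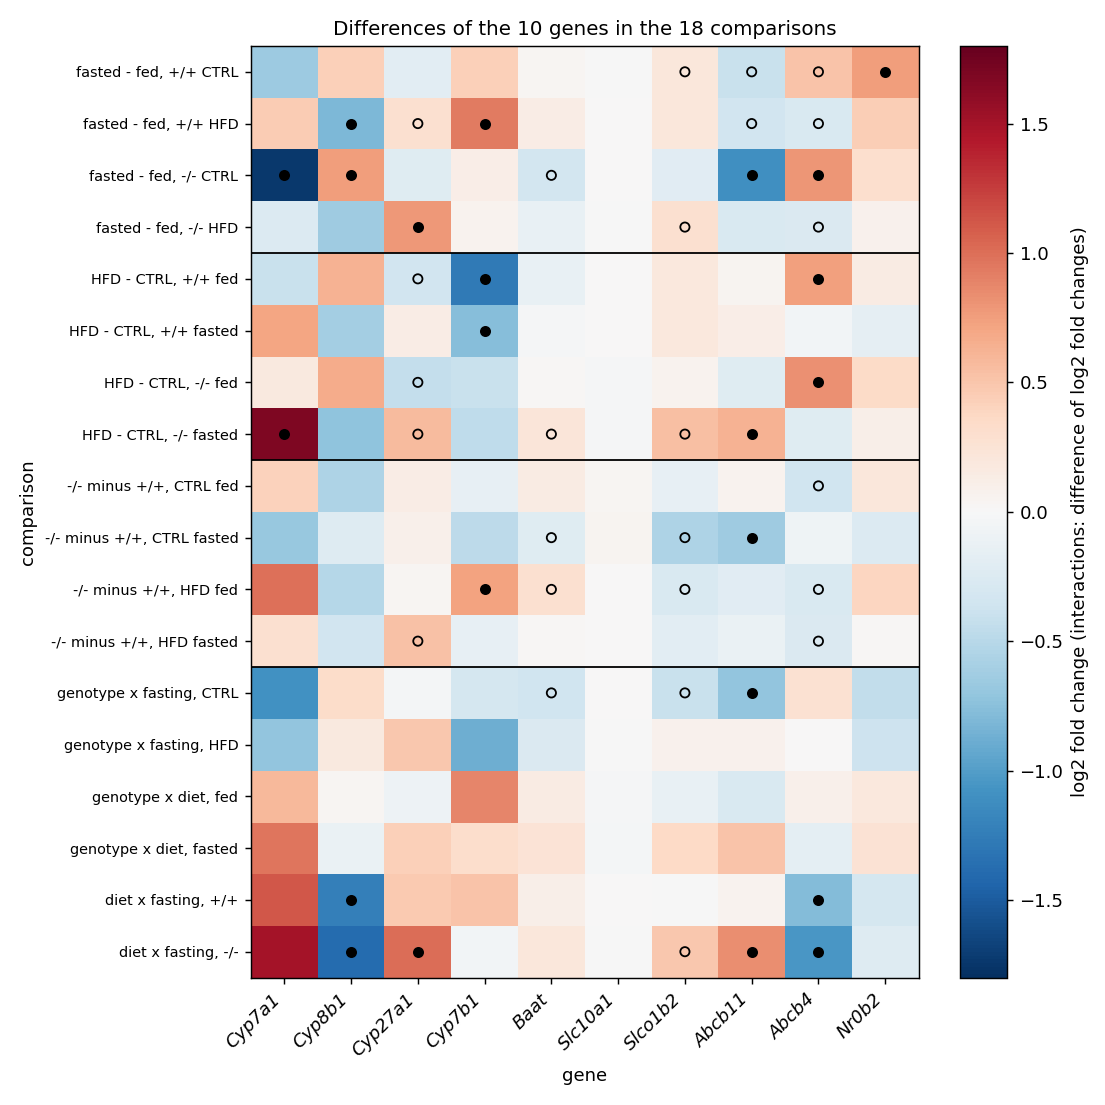
Differences of the 10 genes (columns) in the 12 pairwise comparisons and 6 interactions (rows), as log2 fold changes on a colour scale from -1.8 (blue) to 1.8 (red). Filled dots mark called genes (23 in all) and open dots those that passed the adjusted p but not the fold threshold. The signs +/+ and -/- stand for p110αhep+/+ and p110αhep-/- mice.

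Cyp7a1 was called for fasting in p110αhep-/- mice on CTRL diet, where it was lower in fasted mice, and its level there was higher on HFD. In p110αhep-/- mice on CTRL diet, its level ran from 9.16 to 12.1 when fed (median 10.71) and from 7.51 to 10.16 when fasted (median 9.25). On HFD, it ran from 9.82 to 11.44 when fed (median 10.73) and from 9.86 to 11.57 when fasted (median 10.46). The fasted arrays on CTRL diet thus sat lowest, while the ranges of the groups still overlapped. Fasting lowered Cyp7a1 by a fold of 3.35 on CTRL diet (-1.74 ± 0.40, adjusted p = 0.000546 in limma), and HFD raised it by a fold of 3.2 in fasted mice (1.68 ± 0.41, adjusted p = 0.00544). On HFD the fasting difference was -0.24 (95% interval -1.12 to 0.64). The test of the difference between the diets gave 1.502 ± 0.59 (adjusted p = 0.119 in limma), so the fasting effect is not shown to differ between them. It was called only without replicate 6 of fed mice on CTRL diet among the fits with 1 array left out (1.83, adjusted p = 0.0448).

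In p110αhep+/+ mice, Cyp7a1 had no call. Its fasting difference was -0.65 (95% interval -1.44 to 0.13) on CTRL diet and 0.46 (95% interval -0.30 to 1.22) on HFD. The test of whether the fasting difference itself depended on genotype on CTRL diet gave -1.09 (95% interval -2.21 to 0.03, adjusted p = 0.291 in limma), so the genotypes are not shown to differ in it. In fed mice on HFD, Cyp7a1 was higher in p110αhep-/- mice by 0.99 ± 0.40, with an adjusted p of 0.0554 in limma. This difference was called with the slide as a term (0.99, adjusted p = 0.0437), with only probes well above background on all arrays (adjusted p = 0.0467), with only the arrays of the groups compared (adjusted p = 0.00197) and without replicate 3 of the p110αhep-/- group (1.08, adjusted p = 0.0405). The arrays of a group spread widely for this gene, with a standard deviation of 0.75 within groups. Within the washing batches, the fasting difference in p110αhep-/- mice on CTRL diet was -1.005 (adjusted p = 0.157 in limma) in batch 1 and -2.38 (adjusted p = 0.00234) in batch 2. The HFD difference in fasted p110αhep-/- mice was 1.15 (adjusted p = 0.405 in limma) and 2.08 (adjusted p = 0.0205).

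**Figure D2:**
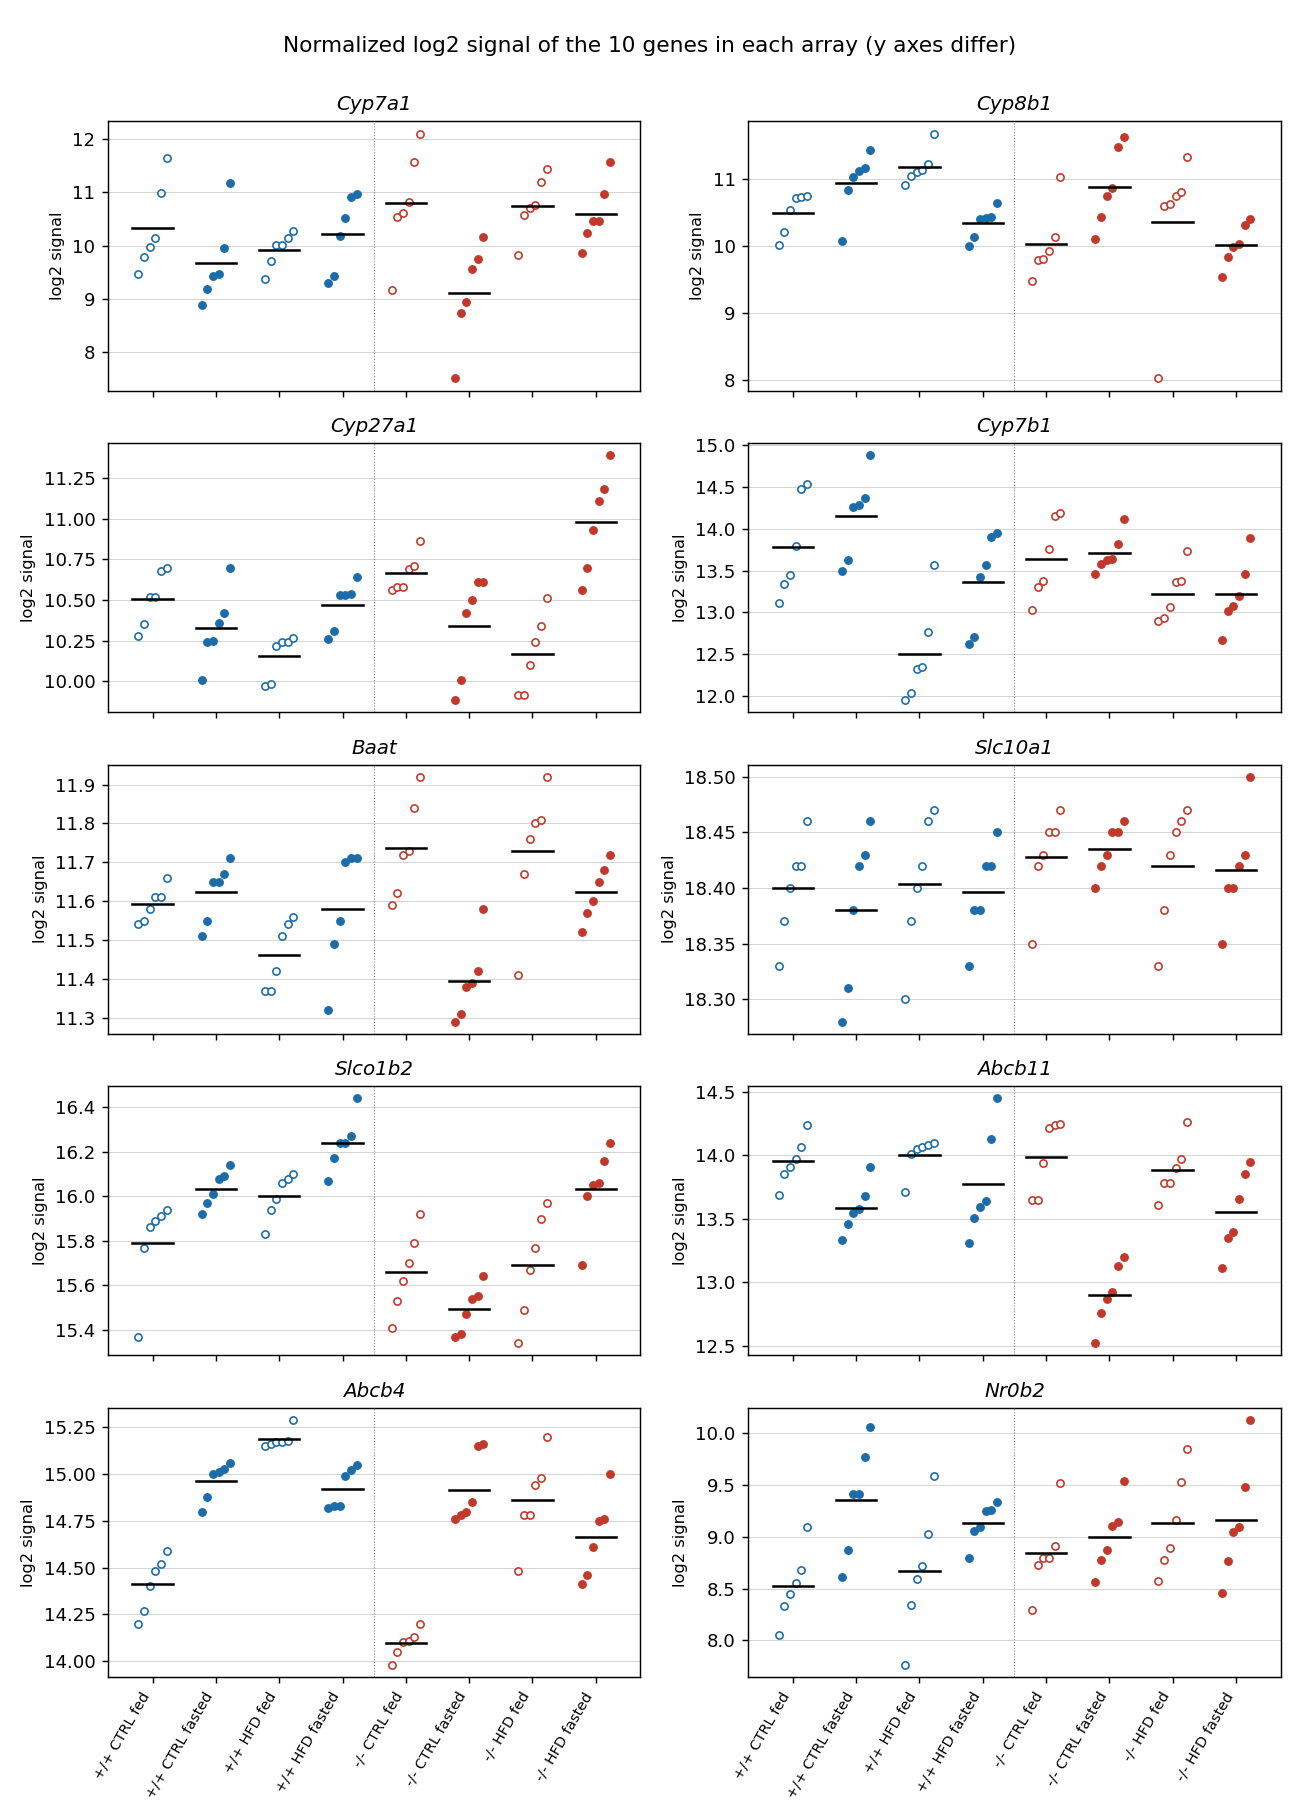
Normalized log2 signal (y axis, own scale in each panel) of the 10 genes in each of the 48 arrays, by group (x axis). Points are mice, open for fed and filled for fasted, blue for p110αhep+/+ and red for p110αhep-/-, and black lines are group means. The lowest Cyp8b1 point, at 8.02, is replicate 3 of fed p110αhep-/- mice on HFD, and all Abcb4 arrays of fed mice on CTRL diet lie below those of fasted mice on CTRL diet.

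Cyp8b1 was lowered by fasting in p110αhep+/+ mice on HFD and raised by it in p110αhep-/- mice on CTRL diet. In p110αhep+/+ mice on HFD, its level ran from 10.91 to 11.68 when fed (median 11.11) and from 10 to 10.64 when fasted (median 10.42). These groups did not overlap, and fasting lowered Cyp8b1 by a fold of 1.75 (-0.81 ± 0.24, adjusted p = 0.00845 in limma). In p110αhep-/- mice on CTRL diet, it ran from 9.48 to 11.03 when fed (median 9.86) and from 10.11 to 11.63 when fasted (median 10.81). Here the ranges overlapped, and fasting raised it by a fold of 1.69 (0.75 ± 0.25, adjusted p = 0.0163 in limma). The other fasting differences were 0.43 in p110αhep+/+ mice on CTRL diet (adjusted p = 0.188) and -0.64 in p110αhep-/- mice on HFD (adjusted p = 0.0795). The genotypes were not shown to differ in the fasting effect on CTRL diet (0.32, 95% interval -0.38 to 1.03, adjusted p = 0.676 in limma) or on HFD (0.17, 95% interval -0.56 to 0.90, adjusted p = 0.876).

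The difference between the fasting effects on HFD and CTRL diet was called for Cyp8b1 in both genotypes. It was -1.24 ± 0.34 in p110αhep+/+ mice (adjusted p = 0.0414 in limma, with 2 of the 10 genes called and 0.888% of all genes) and -1.39 ± 0.37 in p110αhep-/- mice (adjusted p = 0.014, with 4 of the 10 genes called and 2.9% of all genes). The call in p110αhep+/+ mice was lost on leaving out any of 16 of the 24 arrays (adjusted p up to 0.0819; it was kept without replicates 1, 3 or 4 of fed or 1 of fasted mice on CTRL diet, and 1 or 5 of fed or 2 or 5 of fasted mice on HFD), under the replicate block (-1.21, adjusted p = 0.0765) and with the washing batch as a term (adjusted p = 0.0511). The value in p110αhep-/- mice was -2.38 in washing batch 1 and -0.28 in batch 2, and leaving out replicate 3 of fed mice on CTRL diet gave an adjusted p of 0.0559. Its call was also lost without array weights and with only the arrays of the groups compared. The rise with fasting in p110αhep-/- mice on CTRL diet was 1.30 in batch 1 and 0.06 in batch 2, and its call was lost without replicate 3 of the fed or replicate 5 of the fasted mice (adjusted p up to 0.128).

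One array stood apart for Cyp8b1. Replicate 3 of fed p110αhep-/- mice on HFD had a level of 8.02, against 10.6 to 11.33 in the other 5 arrays of its group, and it also had the lowest array weight of the fit, 0.349. Without this array, Cyp8b1 was called in all 4 diet comparisons. HFD then raised it in fed mice of both genotypes (0.65 in p110αhep+/+, adjusted p = 0.0176 in limma, and 0.85 in p110αhep-/-, adjusted p = 0.0083) and lowered it in fasted mice (-0.62, adjusted p = 0.0361, and -0.72, adjusted p = 0.0278). With all arrays, the same 4 differences were 0.63, 0.67, -0.61 and -0.73, with adjusted p values of 0.0519 to 0.0978. The fasting difference in p110αhep-/- mice on HFD was also called without this array (-0.83, adjusted p = 0.00656 in limma). It was -1.09 in washing batch 1 (adjusted p = 0.0137 in limma) and -0.22 in batch 2 (adjusted p = 0.805). The number of diet calls over the 10 genes was 6 of 40 with this array and 10 of 40 without it, where all 4 gained were those of Cyp8b1, while the share of all genes called was 2.69% and 2.77%.

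Replicates 5 and 6 of fasted p110αhep-/- mice on CTRL diet stood together outside the range of the other 4 arrays of their group for several genes. They were at 11.63 and 11.48 for Cyp8b1 (10.11 to 10.86 in the others), at 10.01 and 9.886 for Cyp27a1 (10.42 to 10.61), at 11.31 and 11.29 for Baat (11.38 to 11.58) and at 15.15 and 15.16 for Abcb4 (14.76 to 14.85), but not for the other 6 genes. Without both arrays, a choice made after seeing these levels, the rise of Cyp8b1 with fasting was not called (0.54, fold 1.45, adjusted p = 0.0941 in limma). Its difference between diets in p110αhep-/- mice stayed called (-1.18, adjusted p = 0.04). Of the 2 calls for genotype over the 10 genes, 1 was left, while the share of all genes called was 5.07%.

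The difference of the fasting effects between diets was called in p110αhep-/- mice for Cyp8b1, Cyp27a1, Abcb11 and Abcb4, and the promoters of Cyp8b1 and Abcb11 are shown as those of the 4 that held a motif searched. Windows of 250 bases before to 50 after the start site were taken from RefSeq (GRCm38.p6), which matched 7 of the 10 genes. They were searched on both strands for AGGTCA (a core site of nuclear receptors), CAAGGTCA (an LRH-1 site, which contains the former), GTAAACA (a forkhead site) and CAAAGTCCA (an HNF4α site). Of 32851 promoters of this length, 16.3% held AGGTCA, 1.56% CAAGGTCA, 3.65% GTAAACA and 0.475% CAAAGTCCA. The 250 bases before the start of Cyp8b1 (chr9:121916306-121916555, minus strand) and of Abcb11 (chr2:69342617-69342866, minus strand) are given 5′ to 3′, with matches in capitals.
Cyp8b1: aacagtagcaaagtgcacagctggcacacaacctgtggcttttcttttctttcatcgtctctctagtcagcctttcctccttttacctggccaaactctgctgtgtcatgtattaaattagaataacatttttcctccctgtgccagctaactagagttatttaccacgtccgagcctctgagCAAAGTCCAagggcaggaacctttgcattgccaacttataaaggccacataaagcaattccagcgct
Abcb11: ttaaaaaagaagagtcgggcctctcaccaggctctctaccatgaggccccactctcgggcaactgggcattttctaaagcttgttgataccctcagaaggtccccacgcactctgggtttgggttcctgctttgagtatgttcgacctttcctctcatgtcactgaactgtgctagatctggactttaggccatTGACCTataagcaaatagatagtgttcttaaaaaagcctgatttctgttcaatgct
The match in Cyp8b1 is CAAAGTCCA, and the match in Abcb11 is AGGTCA read on the other strand. The windows of Cyp27a1, Abcb4 and Nr0b2 held none of these letters, and Slco1b2 and 1 of the 2 windows of Slc10a1 held 1 AGGTCA each. A match of letters describes the sequence and is no evidence of binding.

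Cyp27a1 was called for fasting in p110αhep-/- mice on HFD. Its level there ran from 9.91 to 10.51 when fed (median 10.17) and from 10.56 to 11.39 when fasted (median 11.02). Every fasted array was above every fed array, and the fold was 1.71 (0.78 ± 0.13, adjusted p = 7.13e-06 in limma). On CTRL diet, the fasting difference in these mice was -0.22 (95% interval -0.45 to 0.0046), and the difference between the diets was 1.00 ± 0.17 (adjusted p = 7.99e-05 in limma). Both calls held in each washing batch (0.59 and 1.11 for fasting, 0.79 and 1.31 for the difference between diets). In p110αhep+/+ mice, the same difference between diets was 0.48 ± 0.16 with an adjusted p of 0.0947 in limma.

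Cyp27a1 also had 5 differences that passed the adjusted p but not the fold threshold. In fed mice it was lower on HFD by 0.34 in p110αhep+/+ mice and by 0.43 in p110αhep-/- mice, without overlap of the groups in either. In fasted p110αhep-/- mice, it was 0.57 ± 0.12 above CTRL diet on HFD (adjusted p = 0.00106 in limma). This difference was just under the fold threshold and was called under the replicate block (0.59), without array weights (0.64), with no filter on dim probes (0.59), in washing batch 2 alone (0.65) and in 6 fits with 1 array left out (0.59 to 0.65). In the same mice, it was 0.53 ± 0.12 above p110αhep+/+ mice on HFD (adjusted p = 0.00052 in limma), and this was called in washing batch 2 alone (0.72) and without replicate 4 or 6 of the p110αhep-/- group (0.60 and 0.61). Fasting on HFD gave 0.29 ± 0.11 in p110αhep+/+ mice. The genotypes were not shown to differ in the fasting effect on HFD (0.49 ± 0.17, adjusted p = 0.0935 in limma).

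Cyp7b1, the hydroxylase of the alternative pathway, was lower on HFD in p110αhep+/+ mice in both nutritional states. In fed p110αhep+/+ mice, its level on CTRL diet ran from 13.11 to 14.53 (median 13.62), while on HFD it ran from 11.95 to 13.56 (median 12.34). In fasted p110αhep+/+ mice, the CTRL arrays ran from 13.49 to 14.88 (median 14.27) and the HFD arrays from 12.62 to 13.95 (median 13.5). The ranges overlapped in both states, with 5 of 6 fed arrays on HFD below every fed array on CTRL diet. The folds were 2.42 in fed mice (-1.27 ± 0.25, adjusted p = 0.000154 in limma) and 1.7 in fasted mice (-0.76 ± 0.25, adjusted p = 0.0311).

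Cyp7b1 of p110αhep-/- mice differed by -0.40 (95% interval -0.94 to 0.15) in fed and -0.45 (95% interval -0.99 to 0.09) in fasted mice between HFD and CTRL diet. The test of the genotype difference in the diet effect gave 0.87 ± 0.37 in fed mice (adjusted p = 0.191 in limma, with none of the 10 genes called, 1 with an unadjusted p under 0.05, and 1.4% of all genes called) and 0.31 ± 0.36 in fasted mice (adjusted p = 0.678, with none of the 10 called, 4 with an unadjusted p under 0.05, and 1.88% of all genes called). Cyp7b1 was raised by fasting in p110αhep+/+ mice on HFD (0.94 ± 0.24, adjusted p = 0.0027 in limma) and was higher in fed p110αhep-/- than in fed p110αhep+/+ mice on HFD (0.73 ± 0.26, adjusted p = 0.0275). A second probe of Cyp7b1 gave -1.20, -0.75, 1.01 and 0.74 for these 4 calls.

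The calls of Cyp7b1 rested more on single arrays in some comparisons than in others. The HFD difference in fed p110αhep+/+ mice and the fasting difference on HFD stayed called whichever single array was left out. In washing batches 1 and 2, the former was -1.53 (adjusted p = 0.000999 in limma) and -0.81 (adjusted p = 0.24), and the latter 1.56 (adjusted p = 0.00034) and 0.24 (adjusted p = 0.741). The genotype difference in fed mice on HFD was 0.93 and 0.51 in the batches, was not called under the replicate block (0.68, adjusted p = 0.0613) or with the slide as a term (0.60, adjusted p = 0.0649), and was lost without any of replicates 1 and 6 of p110αhep-/- or 1, 2 and 6 of p110αhep+/+ mice (adjusted p up to 0.0861). The HFD difference in fasted p110αhep+/+ mice was lost without any of replicates 1, 3, 4 and 5 on CTRL diet or 4 and 5 on HFD (adjusted p up to 0.14).

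Baat was never called, and its differences were small. Its level ran from 11.29 to 11.92 over the 48 arrays. In p110αhep-/- mice on CTRL diet, every fasted array (11.29 to 11.58) was below every fed array (11.59 to 11.92), with a difference of -0.33 ± 0.06 (adjusted p = 3.35e-05 in limma), which is a fold of 1.26. In p110αhep+/+ mice this difference was 0.04 ± 0.06, and the difference between the genotypes was -0.36 ± 0.09 (adjusted p = 0.00958). In fed mice on HFD, Baat was 0.29 ± 0.06 higher in p110αhep-/- mice (adjusted p = 0.000253 in limma). A second, dim probe of Baat gave -0.15, -0.27 and 0.23 for the fasting difference in p110αhep-/- mice, the genotype difference in it, and the last value, with adjusted p values above 0.05. In fasted mice on CTRL diet, the genotype difference was -0.21 by the brightest (adjusted p = 0.00601 in limma) and -0.26 by the second probe (adjusted p = 0.033). In fasted p110αhep-/- mice, the HFD difference was 0.22 (adjusted p = 0.0212 in limma) and 0.05 (adjusted p = 0.804) by these probes.

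Slc10a1 gave different answers by its 2 probes. The brightest probe, by which the gene is tested here, hardly moved: its level ran from 18.28 to 18.5 over all arrays, and no comparison had an adjusted p of at most 0.05. It lies at chr12:82056539-82056598 (mm9), and 36 of its 60 bases belong to runs of 20 bases that also occur in 2 probes of other genes or in 3 RefSeq promoters. Only probes of this array and promoter windows were searched, so other transcripts that hold such runs are not counted. Whether the signal of this probe reads Slc10a1 alone was not tested, although it stands for the gene in the counts and medians. None of the other 16 probes of the 10 genes shares such a run. The other probe of Slc10a1 lies at chr12:82054180-82054239 (mm9). A window of 30 bases of each probe is shown, with shared bases in capitals.
Slc10a1, brightest probe: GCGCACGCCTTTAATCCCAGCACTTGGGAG
Slc10a1, other probe: ccacaacctgcttcatgttgtaactcaaaa
By the other probe, which was examined after the first had been seen not to move, fed p110αhep+/+ mice on CTRL diet had levels of 15.21 to 15.52 (median 15.37), and those on HFD 14.82 to 14.98 (median 14.95). These groups did not overlap. The difference was -0.45 ± 0.07 (adjusted p = 4.92e-06 in limma), a fold under 1.5. In fed p110αhep-/- mice, the diet difference by this probe was -0.34 ± 0.08 (adjusted p = 0.00172 in limma). On CTRL diet, fed p110αhep-/- mice were 0.29 ± 0.07 lower than fed p110αhep+/+ mice (adjusted p = 0.00305 in limma). By neither probe was Slc10a1 called.

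**Figure D3:**
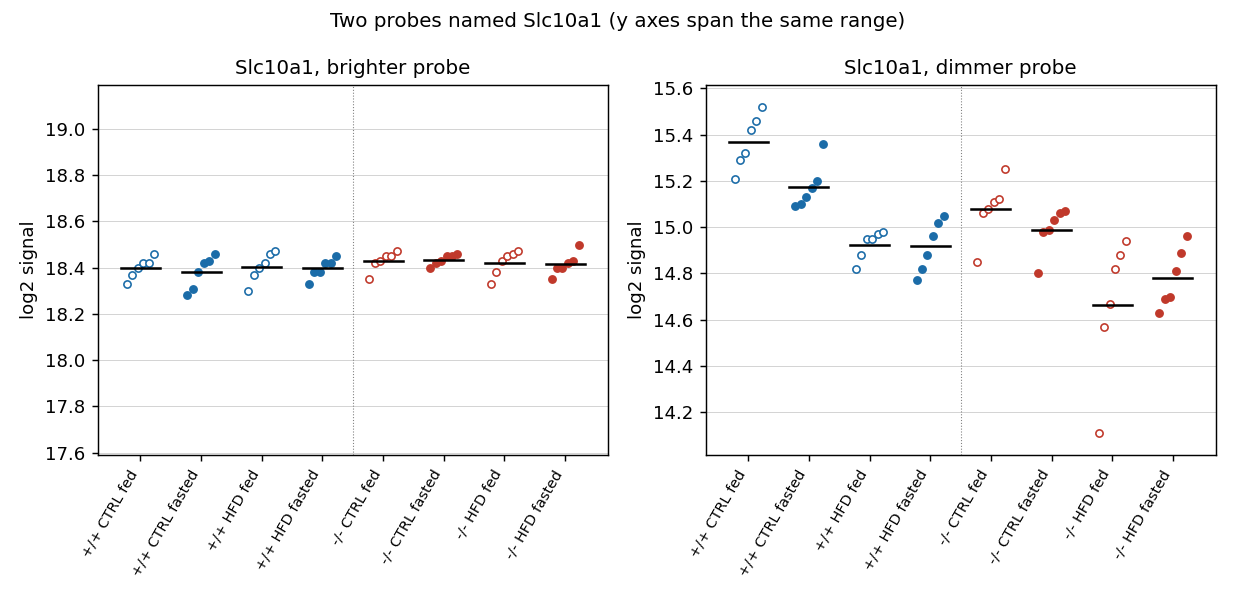
Normalized log2 signal (y axis) of the 2 probes named Slc10a1 in each of the 48 arrays by group (x axis), with axes of equal span and black lines for group means. Open points are fed and filled points fasted mice, blue p110αhep+/+ and red p110αhep-/-. The brightest probe stays between 18.28 and 18.5, while by the other probe all fed p110αhep+/+ arrays on HFD lie below those on CTRL diet.

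Slco1b2, the other carrier of uptake, had no call by its brightest probe with all arrays, but its differences included 2 without overlap of groups. In fasted mice on CTRL diet, it ran from 15.92 to 16.14 in p110αhep+/+ (median 16.05) and from 15.37 to 15.64 in p110αhep-/- mice (median 15.51). Every p110αhep-/- array was lower, and the difference was -0.55 ± 0.08 (adjusted p = 1.4e-06 in limma), a fold of 1.46. In fasted p110αhep-/- mice it was higher on HFD by 0.54 ± 0.09 (adjusted p = 2.65e-05 in limma), also without overlap. A second probe gave -0.80 and 0.57 for these differences, and the first of these passes the fold threshold. The genotype difference was called with the median over probes (-0.67), in washing batch 1 alone (-0.625) and without replicate 4 of the p110αhep-/- group (-0.59). The HFD difference was called without replicate 4 of the HFD group (0.60). In fed mice on HFD the probes differed in sign, with -0.28 (adjusted p = 0.00911 in limma) by the brightest and 0.24 (adjusted p = 0.182) by the second for p110αhep-/- against p110αhep+/+ mice. The difference of the fasting effects between genotypes on CTRL diet was -0.41 ± 0.12 (adjusted p = 0.0363 in limma) and that between diets in p110αhep-/- mice 0.48 ± 0.12 (adjusted p = 0.00933), both with a fold under 1.5. The second probe gave -0.63 (adjusted p = 0.045 in limma), which passes the fold threshold, and 0.30 (adjusted p = 0.412).

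Abcb11, the bile salt export pump, had its lowest levels in fasted p110αhep-/- mice on CTRL diet. In these mice, its level ran from 13.65 to 14.25 when fed (median 14.08) and from 12.52 to 13.2 when fasted (median 12.89). On HFD, it ran from 13.61 to 14.26 when fed (median 13.84) and from 13.11 to 13.95 when fasted (median 13.53). In p110αhep+/+ mice on CTRL diet, it ran from 13.69 to 14.24 when fed (median 13.94) and from 13.33 to 13.91 when fasted (median 13.56). The fasted p110αhep-/- arrays on CTRL diet were below every fed array of their genotype and below every fasted p110αhep+/+ array on this diet.

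Fasting lowered Abcb11 in p110αhep-/- mice on CTRL diet by a fold of 2.16 (-1.11 ± 0.14, adjusted p = 1.91e-08 in limma), in both washing batches (-1.27 and -0.97). In p110αhep+/+ mice it was 0.40 ± 0.14 lower on fasting (adjusted p = 0.0208 in limma, fold 1.32), and the difference between genotypes was -0.71 ± 0.19 (adjusted p = 0.0297, with 1 of the 10 genes called and 1.32% of all genes). On HFD, this difference between genotypes was 0.07 ± 0.20 (adjusted p = 0.909 in limma, with none of the 10 called, 3 with an unadjusted p under 0.05, and 1.4% of all genes called). The genotype difference in fasted mice on CTRL diet was -0.64 ± 0.14 (adjusted p = 0.000399 in limma), and HFD raised Abcb11 in fasted p110αhep-/- mice by 0.63 ± 0.15 (adjusted p = 0.00286). The fasting effect in p110αhep-/- mice differed between the diets by 0.84 ± 0.21 (adjusted p = 0.00658 in limma).

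The genotype by fasting difference of Abcb11 was -1.12 and -0.40 in the 2 washing batches, had an adjusted p of 0.0551 under the replicate block, and was lost on leaving out any of 8 of 24 arrays (adjusted p up to 0.089). These were replicates 1, 4 and 5 of fed and 1 of fasted p110αhep+/+ mice and replicates 3, 5 and 6 of fed and 1 of fasted p110αhep-/- mice. The HFD difference in fasted p110αhep-/- mice fell under the fold threshold with median scaling (0.57) and without any of replicates 1 and 5 on CTRL diet or 3 and 5 on HFD. The genotype difference in fasted mice fell under it without replicate 1 of p110αhep+/+ or replicate 5 of p110αhep-/- mice (-0.58 to -0.72 over single arrays left out). The difference between diets in p110αhep-/- mice was 1.08 and 0.63 in the batches. Without replicates 5 and 6 of fasted p110αhep-/- mice on CTRL diet, 3 of the 5 calls of Abcb11 were lost. The genotype difference in fasted mice was then -0.57 and the HFD difference 0.56, both with folds under 1.5, and the genotype by fasting difference was -0.64 (adjusted p = 0.0563 in limma). The fasting difference stayed called at -1.04 (adjusted p = 2.48e-07).

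Abcb4, the phospholipid flippase of the canalicular membrane, was higher in fasted than in fed mice on CTRL diet, while on HFD its fasting differences were smaller, below 0 and under the fold threshold. In p110αhep+/+ mice, its level ran from 14.2 to 14.59 in fed mice on CTRL diet (median 14.44), from 14.8 to 15.06 in fasted mice on CTRL diet (median 15.01), from 15.15 to 15.29 in fed mice on HFD (median 15.17) and from 14.82 to 15.05 in fasted mice on HFD (median 14.91). In p110αhep-/- mice, it ran from 13.98 to 14.2 in fed (median 14.1) and 14.76 to 15.16 in fasted mice on CTRL diet (median 14.83), and from 14.48 to 15.2 in fed (median 14.86) and 14.41 to 15 in fasted mice on HFD (median 14.68). On CTRL diet every fasted array was above every fed array in both genotypes, and on HFD every fasted p110αhep+/+ array was below every fed one.

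On CTRL diet, fasting raised Abcb4 in p110αhep-/- mice by 0.79 ± 0.08 (fold 1.73, adjusted p = 8.81e-11 in limma), while in p110αhep+/+ mice the difference was 0.51 ± 0.08 (fold 1.43, adjusted p = 1.52e-06). The latter was called under median scaling, with the processed signal and in washing batch 1 alone (0.63 in each). The 2 further probes gave 0.46, not called, and 0.64, called. The difference between genotypes was 0.28 ± 0.11 (adjusted p = 0.156 in limma), and 0.43 (adjusted p = 0.0346) and 0.33 (adjusted p = 0.214) by the further probes. On HFD, the fasting difference was -0.27 ± 0.08 in p110αhep+/+ (adjusted p = 0.00585 in limma) and -0.26 ± 0.09 in p110αhep-/- mice (adjusted p = 0.024), with folds under 1.5. The 2 further probes of Abcb4 gave -0.17 and -0.13 for these HFD differences in p110αhep+/+ mice (adjusted p = 0.13 and 0.358 in limma) and -0.37 and -0.22 in p110αhep-/- mice (adjusted p = 0.00263 and 0.146). The difference of the fasting effects between diets was -0.78 ± 0.11 in p110αhep+/+ (adjusted p = 2.18e-05 in limma) and -1.05 ± 0.12 in p110αhep-/- mice (adjusted p = 3.78e-08). In fed mice, HFD raised Abcb4 by a fold of 1.67 in p110αhep+/+ (0.74 ± 0.08, adjusted p = 2.29e-09) and by a fold of 1.77 in p110αhep-/- mice (0.82 ± 0.08, adjusted p = 5.43e-09). In fasted mice the diet differences were -0.04 in p110αhep+/+ and -0.23 in p110αhep-/- mice (adjusted p = 0.746 and 0.0756 in limma), and in the latter the 2 further probes gave -0.42 each (adjusted p = 0.00153 and 0.00769), with folds under 1.5. All 5 calls of Abcb4 were kept on leaving out any 1 array, and the further probes gave -0.62 and -0.77 in p110αhep+/+ and -1.26 and -1.19 in p110αhep-/- mice for the difference between diets.

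Abcb4 was lower in p110αhep-/- mice in 3 of the 4 comparisons of genotypes, with folds under 1.5. The genotype difference was -0.36 ± 0.08 in fed mice on CTRL diet (adjusted p = 0.000844 in limma), -0.28 ± 0.08 in fed mice on HFD (adjusted p = 0.00679) and -0.27 ± 0.08 in fasted mice on HFD (adjusted p = 0.0106). In fasted mice on CTRL diet it was -0.08 (95% interval -0.24 to 0.07). Arrays of the genotypes overlapped in all 4 comparisons. The 2 further probes gave values from -0.40 to -0.16 in these 3 comparisons, with adjusted p values of 0.174 and 0.131 in limma in fed mice on HFD.

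**Figure D4:**
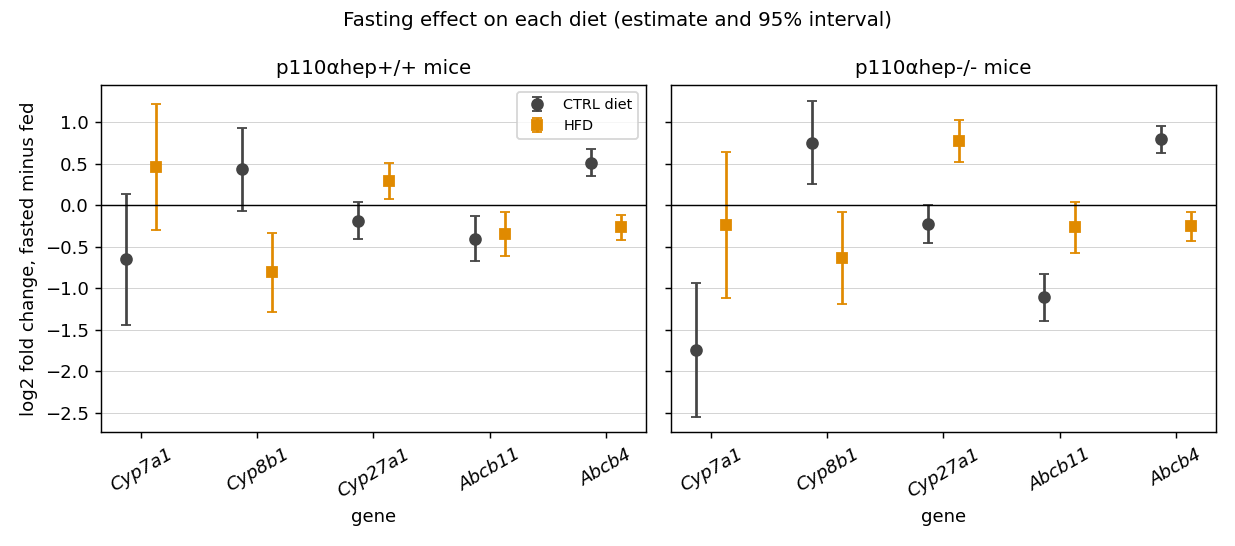
Log2 fold change of fasted against fed mice (y axis, with 95% intervals of the limma fit) for 5 genes (x axis) on CTRL diet (grey circles) and HFD (orange squares), in p110αhep+/+ (left) and p110αhep-/- mice (right). Cyp8b1 and Abcb4 lie above 0 on CTRL diet and below 0 on HFD in both genotypes, while Cyp27a1 lies above 0 on HFD only.

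Nr0b2, which encodes SHP, was raised by fasting in p110αhep+/+ mice on CTRL diet. Its level ran from 8.05 to 9.09 in fed (median 8.503) and from 8.61 to 10.06 in fasted mice (median 9.42). The ranges overlapped, with a fold of 1.68 (0.75 ± 0.24, adjusted p = 0.0145 in limma). The rise was 1.32 in washing batch 1 (adjusted p = 0.0118 in limma) and 0.19 in batch 2 (adjusted p = 0.737). The other fasting differences were 0.44 in p110αhep+/+ mice on HFD, 0.30 in p110αhep-/- mice on CTRL diet and 0.07 in p110αhep-/- mice on HFD, and no diet, genotype or interaction call was made for it.

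In mice of the same group, Cyp7a1 and Cyp8b1 varied together. Over the 48 arrays, with group means removed, Pearson's r was 0.42 (permutation p = 0.00383, adjusted p = 0.0153 over 4 pairs) and Spearman's rho 0.384 (permutation p = 0.0113, adjusted p = 0.0452). These p values are two-sided, from 100000 permutations within groups. Without the 2 arrays farthest from the median of Cyp7a1, r was 0.407, and it was 0.363 and 0.491 within the 2 washing batches. Those 2 arrays were chosen by Cyp7a1 alone, and r without the array that stood apart for Cyp8b1 was not computed. Over the 8 group means, which share the normalization, r between the genes was -0.791, given as a description. Nr0b2 was not shown to vary with its targets Cyp7a1 and Cyp8b1 or with Cyp7b1: r was -0.05 with Cyp7a1, -0.04 with Cyp8b1 and 0.07 with Cyp7b1, each with an adjusted permutation p of 0.813. The corresponding rho values were -0.0038, -0.142 and 0.0781, with adjusted permutation p values of 0.714 to 0.981.

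A further list of 43 genes of bile acid synthesis, transport and regulation was examined, of which 41 were measured (Slc51a and Fgf15 did not pass the filter). Fasting changed 7 of the 41 upward and 3 downward in p110αhep+/+ mice on CTRL diet, 3 and 1 on HFD, 8 and 4 in p110αhep-/- mice on CTRL diet, and 5 and 1 on HFD, where 5.46%, 4.72%, 7.08% and 5.9% of all genes were called. HFD changed 3 upward and 3 downward in fed and 2 and 1 in fasted p110αhep+/+ mice, and 2 and 1 in fed and 3 and 0 in fasted p110αhep-/- mice, beside 3.71%, 2.82%, 2.34% and 1.89% of all genes. In p110αhep-/- against p110αhep+/+ mice, 2 were higher and 2 lower in fed and 1 and 2 in fasted mice on CTRL diet, and 5 and 3 in fed and 5 and 2 in fasted mice on HFD, beside 3.73%, 3.23%, 6.23% and 6.56% of all genes. The median log2 fold change of the 41 genes lay between -0.03 and 0.18 in these 12 comparisons, beside -0.02 to 0.03 for all genes tested. The difference of the fasting effects between diets was called for 1 of 41 in p110αhep+/+ (0.888% of all genes) and for 7 in p110αhep-/- mice (2.9%).

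Cyp2c70, the enzyme that makes muricholic acids in mice, had the largest interaction of the genes named. In p110αhep-/- mice on CTRL diet, its level ran from 15.62 to 16.32 when fed (median 15.98) and from 11.9 to 14.36 when fasted (median 13.97). On HFD, it ran from 14.15 to 15.73 when fed (median 14.82) and from 15.63 to 16.04 when fasted (median 15.86). Fasting thus lowered it on CTRL diet (-2.36 ± 0.29, adjusted p = 1.43e-08 in limma), without overlap, and raised it on HFD (1.06 ± 0.32, adjusted p = 0.0103). The difference between the diets was 3.42 ± 0.43 in p110αhep-/- mice (adjusted p = 3.34e-07 in limma) and 1.99 ± 0.40 in p110αhep+/+ mice (adjusted p = 0.00335), where fasting on CTRL diet gave -1.30 ± 0.29. Of the fasted p110αhep-/- mice on CTRL diet, replicates 5 and 6 were at 11.99 and 11.9 and the other 4 at 13.78 to 14.36. Without both arrays, the fasting difference was -1.90 (adjusted p = 1.97e-08 in limma), and the difference between the diets was 2.96 (adjusted p = 4.83e-08). In the same interaction in p110αhep-/- mice, Cyp39a1, an oxysterol hydroxylase, had 1.11 ± 0.35, and Acot8 and Hsd17b4, which encode peroxisomal enzymes, had -0.79 ± 0.11 and -0.72 ± 0.10.

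Among transporters, Slco1a1, an uptake carrier, was lower on HFD in p110αhep+/+ mice by a fold of 5.68 in fed (-2.51 ± 0.44, adjusted p = 3.47e-05 in limma) and 3.55 in fasted mice (-1.83 ± 0.44, adjusted p = 0.00337), without overlap. In the fasted mice on HFD, replicate 5 had a level of 6.369 and the other 5 arrays 8.906 to 11.21. Without this array, the folds were 5.6 in fed and 2.44 in fasted mice (-1.29, adjusted p = 0.00967 in limma), and the HFD difference in fed p110αhep-/- mice was called as well (-1.38, adjusted p = 0.00894). With all arrays, the same differences were -1.37 in fed and -0.82 in fasted in p110αhep-/- mice, with adjusted p values of 0.0549 and 0.301 in limma, and the genotypes were not shown to differ in them (adjusted p = 0.374 and 0.391). Abcg8, which with Abcg5 exports sterols into bile, was higher in p110αhep-/- mice on HFD by 1.16 ± 0.15 in fed and 1.05 ± 0.15 in fasted mice. Of the regulators, Foxo1 rose with fasting in all 4 comparisons without overlap of the groups, by 0.84 ± 0.13 and 0.71 ± 0.13 in p110αhep+/+ and by 0.67 ± 0.13 and 0.99 ± 0.15 in p110αhep-/- mice on CTRL diet and HFD. Ppargc1a rose with fasting on CTRL diet in p110αhep+/+ (0.93 ± 0.14) and p110αhep-/- mice (0.83 ± 0.15). Its fasting difference on HFD was 0.43 in p110αhep+/+ (adjusted p = 0.0155 in limma, with a fold under 1.5) and 0.11 in p110αhep-/- mice (adjusted p = 0.66).

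Slc10a2, the apical bile acid transporter of the ileum and of bile ducts, was lower in p110αhep-/- mice in all 4 comparisons of genotypes. The differences were -1.08 ± 0.24 in fed and -1.18 ± 0.23 in fasted mice on CTRL diet, and -1.66 ± 0.24 in fed and -1.87 ± 0.25 in fasted mice on HFD (adjusted p = 0.00091 or lower in limma). Arrays of the genotypes did not overlap in fasted mice. The cholangiocyte markers given above were called lower in the same comparisons, 1 or 2 of 5 in each, and their part in the difference of Slc10a2 was not tested.

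**Figure D5:**
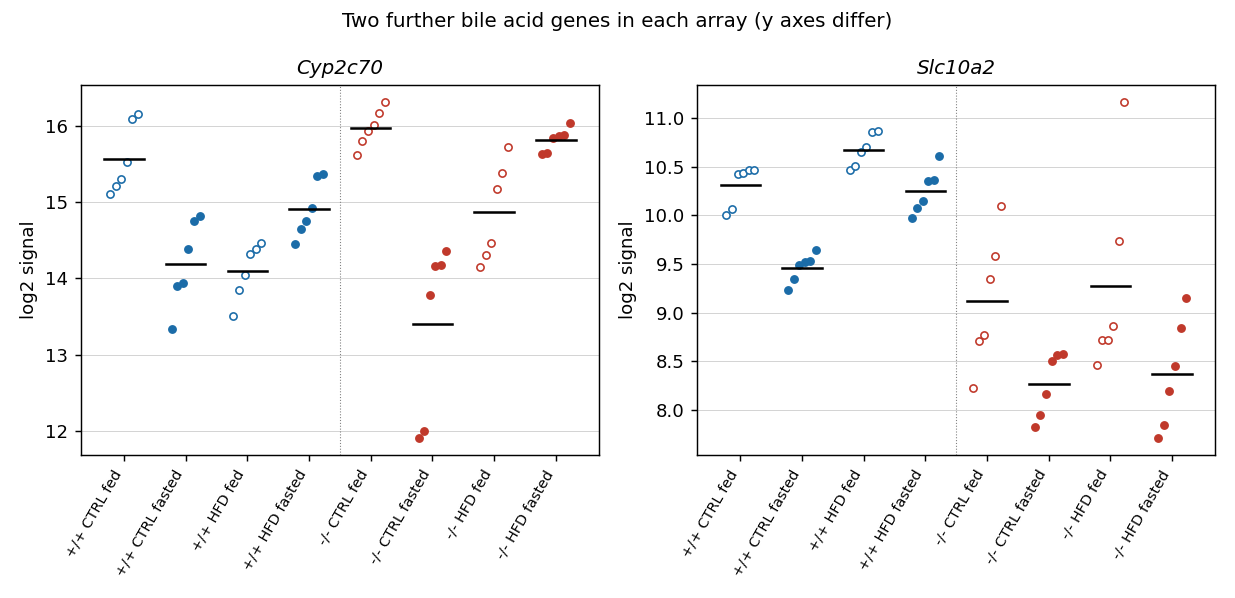
Normalized log2 signal (y axis, own scale in each panel) of Cyp2c70 and Slc10a2 in each of the 48 arrays by group (x axis), with black lines for group means. Open points are fed and filled points fasted mice, blue p110αhep+/+ and red p110αhep-/-. The mean of Cyp2c70 is lowest in fasted p110αhep-/- mice on CTRL diet (11.9 to 14.36). There 2 arrays are at 11.9 and 11.99, and the other 4 (13.78 to 14.36) lie within the range of fed p110αhep+/+ mice on HFD (13.5 to 14.47). The means of Slc10a2 are lower in p110αhep-/- mice, with 1 fed array on HFD at 11.17.

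The patterns over the 8 group means were also compared with those of all genes tested, as a description. The means share arrays and normalization, and genes are not independent. The genes most like Cyp7a1 were Cpb2 (r = 0.983 over 8 means), a probe without a gene symbol (0.981) and Dnajb11 (0.974). Those most like Cyp8b1 were a transcript without a gene symbol (0.941), Bcl2l14 (0.932) and Tspan31 (0.931). Their group means spanned 0.124, 0.664 and 0.631, beside 1.16 for Cyp8b1, so the first hardly moved. Those most like Cyp7b1 were Igfals (0.977), Gm38596 (0.973) and Gm19966 (0.963), and those most like Nr0b2 were Nadk2 (0.981), Brdt (0.974) and a transcript named by its position alone (0.974).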

How the data were processed

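Liver RNA of 48 mice (200 ng each) was labelled with Cy3 and hybridized to 1-colour Agilent mouse arrays of 62976 spots, 1 array per mouse on 6 slides. Per the file headers, the authors deposited scanner intensity values per spot from Agilent Feature Extraction 10.10.1.1, without scaling between arrays, together with flags for outlier, saturated and well above background spots. They also deposited a log2 table of quantile-normalized values, which was used as an alternative here.

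From the intensities, log2 median signals were taken, outlier spots were set missing and the mean was taken over spots of a probe. Probes entered the fit where 5 or more of the 6 arrays of any group were flagged well above background, a criterion chosen here, since the methods of the study name a filtering step without its criterion (30793 of 56605 probes kept). The washing batch was removed, with the groups protected, and arrays were quantile normalized. All 8 groups were fitted in 1 model in limma 3.58.1 (R 4.3.3) with array weights, and p-values were adjusted over all kept probes by the Benjamini-Hochberg method. The brightest probe stood for a gene, and percentages of all genes called refer to the 20486 genes with a kept probe. After seeing the data, Slc10a1 was also examined by its dimmer probe, and fits were added without arrays that stood apart for Cyp2c70 or Slco1a1.

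The 10 genes, the lists of further pathway genes and of cell markers, and the tests were chosen with earlier results of these data known. Of the further pathway genes, the called ones with the largest change were named, at most 4 per comparison, and values of a gene so named were also given in other comparisons. Genes alike in pattern were the 3 with the highest r for each of 4 genes. The fit was tested on simulated data with known changes. Alternatives were other signals, background corrections, scalings, filters, batch, slide and replicate terms, probes, thresholds and sets of arrays. The precision is limited by the number of arrays, 6 mice per group.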

Additional observations from a re-analysis of the deposited data

Results flagged for a closer look

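In 4 of the 80 sets of 6 arrays (10 genes in 8 groups), 1 array lay far from the others by Dixon's test, with a gap past the 95% critical value, and chance alone gives about 1 in 20, or 4. Cyp8b1 was 8.02 in replicate 3 of fed p110αhep-/- mice on HFD, with the nearest array at 10.6 and an array weight of 0.349. Slco1b2 was 15.37 in replicate 2 of fed p110αhep+/+ mice on CTRL diet, with the nearest at 15.77. Abcb11 was 13.71 in replicate 1 of fed p110αhep+/+ mice on HFD, with the nearest at 14.01. Abcb4 was 15.29 in replicate 3 of the same group, with the nearest at 15.18.

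Effects that differed between groups by a test of the difference itself in limma were as follows. The fasting effect differed between HFD and CTRL diet for Cyp8b1 (-1.24 in p110αhep+/+ and -1.39 in p110αhep-/- mice) and Abcb4 (-0.78 and -1.05), and in p110αhep-/- mice for Cyp27a1 (1.00) and Abcb11 (0.84). It differed between genotypes on CTRL diet for Abcb11 (-0.71). Of the further pathway genes, the fasting effect differed between diets for Cyp2c70 (1.99 in p110αhep+/+ and 3.42 in p110αhep-/- mice), and in p110αhep-/- mice for Cyp39a1 (1.11), Acot8 (-0.79) and Hsd17b4 (-0.72). In p110αhep-/- mice 7 of the 41 were called, and only the 4 with the largest change are named. The diet effect differed between genotypes in fed mice for Ch25h (-0.74, adjusted p = 0.0284 in limma) and in fasted mice for Cyp2c70 (1.54, adjusted p = 0.0241), Abcg8 (0.87, adjusted p = 0.00974) and Prox1 (0.78, adjusted p = 0.0199). The probe of Ch25h was well above background on 3 and 6 of 6 arrays of fed p110αhep+/+ mice and on 3 and 4 of fed p110αhep-/- mice (CTRL diet and HFD), so that its value sets arrays at or near background against each other and does not give a measured size. Without replicates 5 and 6 of fasted p110αhep-/- mice on CTRL diet, the values of Cyp2c70 were 2.96 and 1.08 (adjusted p = 0.0519 in limma) in place of 3.42 and 1.54, and that of Abcb11 between genotypes was -0.64 (adjusted p = 0.0563).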

How the results depend on the processing

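Of the 180 values of the 10 genes (18 comparisons), none reversed a call under the 16 planned settings, the 48 fits with 1 array left out, or the dimmer probe of Slc10a1, and all 23 calls kept their sign in both washing batches. The calls kept under the fewest of the 16 settings were the difference between diets of Cyp8b1 in p110αhep+/+ mice (9), the genotype by fasting difference of Abcb11 on CTRL diet (10), and for Cyp7b1 the HFD difference in fasted p110αhep+/+ mice (11) and the genotype difference in fed mice on HFD (12). The number of calls was 8 of 40 for fasting, 6 of 40 for diet, 2 of 40 for genotype and 7 of 60 for interactions, where 5.79%, 2.69%, 4.94% and 1.63% of all genes were called, so that the count for genotype is near that share. Without the fold threshold it was 17, 11 and 10 for fasting, diet and genotype (31.3%, 15.8% and 29.1% of all genes). With the processed signal scaled to its 75th percentile it was 9, 7, 2 and 7 for fasting, diet, genotype and interactions. The shares of all genes were then larger, at 9.16%, 4.42%, 7.96% and 2.04%. As for the number of calls in single batches, it changed as follows. In washing batch 1 alone it was 5 for genotype (5.07%) and 4 for interactions (0.635%), and in batch 2 alone 4 for fasting (6.15%), 1 for genotype (4.45%) and 3 for interactions (0.382%), with 3 arrays per group. With no filter on dim probes genotype had 1 call (4.72%), and without array weights interactions had 4 (1.15%). Without replicates 5 and 6 of fasted p110αhep-/- mice on CTRL diet, chosen after seeing the data, calls were 7, 6, 1 and 6 for fasting, diet, genotype and interactions (5.79%, 2.68%, 5.07% and 1.55% of all genes). The cause of these changes was not tested, except that a batch alone holds fewer arrays. With 1 array left out, calls ranged from 7 to 9 for fasting, 5 to 10 for diet, 1 to 3 for genotype and 5 to 7 for interactions, and the 10 came without replicate 3 of fed p110αhep-/- mice on HFD. The shares of all genes called in these fits were 5.62% to 5.93%, 2.53% to 2.84%, 4.82% to 5.08% and 1.42% to 1.82%.

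Replicate numbers did not pair the samples: deviations of same-numbered arrays had a median correlation of 0.0117, against -0.0042 for other numbers. With the replicate block there were 8, 7, 1 and 5 calls for fasting, diet, genotype and interactions (5.81%, 2.64%, 4.88% and 1.52% of all genes).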
